A study of Mus musculus with 9 samples.

Results

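The 35 genes described here encode the collagens, glycoproteins and proteoglycans of the extracellular matrix, the enzymes and inhibitors that crosslink and cut it, and the receptors, niche signals and contractile proteins of the fibroblast-like cells that produce it. They were found by gene symbol among 18193 named genes on Affymetrix mouse expression arrays, and all 35 were present, with 87 probe sets between them. The brightest probe set over all arrays stood for each gene. Pre-B cells of the genotype IRF4,8 -/- (cells that lack both transcription factors) were grown in OptiMEM with 5% FCS under 3 conditions, with 3 arrays each. The high IL-7 group received 5 ng of the cytokine per volume and the low IL-7 group 0.25 ng. In the IRF4 group, cells of the same genotype had IRF4 returned to them and were kept at the high IL-7 amount. The double deletion is therefore shared by all 9 arrays, and only the IRF4 group regained 1 of the 2 factors. The strain, the age of the animals, the means of putting IRF4 back and any supporting cell layer are not given in the sources used here, so "stromal" names the gene list and not a cell known to have been in the cultures. Nothing in the labels says that replicates came from separate cultures, and p-values measure only the spread between these samples, which may be technical.

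Stromal cells of the bone marrow surround developing B cells, hold them through adhesion molecules such as VCAM1 and feed them with signals such as the chemokine CXCL12 and IL-7. The same cells lay down matrix: fibrillar collagens are secreted as procollagen, trimmed, assembled into fibrils and crosslinked by lysyl oxidases, while metalloproteinases cut matrix proteins and the TIMP proteins inhibit those proteases. Fibroblasts and related mesenchymal cells are the textbook source of most of these transcripts, and B-lineage cells are not.

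The promoters of 4 members are shown because the genes behaved differently across the arrays, as described below: Col1a2, Col3a1 and Cxcl12 ranged widely and together, and Acta2 did not follow them. Each sequence is the 250 bases before the RefSeq start on the gene's own strand, build GRCm38.p6, 5′ to 3′, with matches to the searched motifs in capitals. They lie at chr6:4505368-4505617 (Col1a2, plus strand), chr1:45311288-45311537 (Col3a1, plus strand), chr6:117168285-117168534 (Cxcl12, plus strand) and chr19:34255374-34255623 (Acta2, minus strand).
Col1a2: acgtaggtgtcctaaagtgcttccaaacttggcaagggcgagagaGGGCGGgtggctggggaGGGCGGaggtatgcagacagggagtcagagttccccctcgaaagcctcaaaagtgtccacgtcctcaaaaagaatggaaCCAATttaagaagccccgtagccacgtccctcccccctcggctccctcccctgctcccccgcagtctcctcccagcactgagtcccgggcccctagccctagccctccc
Col3a1: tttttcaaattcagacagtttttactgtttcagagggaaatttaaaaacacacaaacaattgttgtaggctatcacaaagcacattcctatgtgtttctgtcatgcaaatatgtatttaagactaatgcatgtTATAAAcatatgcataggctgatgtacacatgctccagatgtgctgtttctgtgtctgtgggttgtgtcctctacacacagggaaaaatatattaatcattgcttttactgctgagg
Cxcl12: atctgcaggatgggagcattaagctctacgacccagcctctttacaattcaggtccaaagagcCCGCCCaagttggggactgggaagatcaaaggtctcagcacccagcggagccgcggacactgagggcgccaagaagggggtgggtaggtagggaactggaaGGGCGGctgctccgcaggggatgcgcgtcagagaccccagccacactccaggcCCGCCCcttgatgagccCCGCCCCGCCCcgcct
Acta2: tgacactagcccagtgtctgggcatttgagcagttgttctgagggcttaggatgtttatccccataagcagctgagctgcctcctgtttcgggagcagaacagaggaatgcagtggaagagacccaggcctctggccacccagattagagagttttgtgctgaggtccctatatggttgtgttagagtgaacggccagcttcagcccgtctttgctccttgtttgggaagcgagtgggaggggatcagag
The motifs searched, on both strands, were the TATA box TATAAA, the CCAAT box CCAAT, the GC box GGGCGG and the AP-1 motif TGANTCA. The CArG box was searched as CCWWWWWWGG (W being A or T), which can overlap a TATA box. Only exact matches were counted. The Col1a2 window held 2 GC boxes and a CCAAT box, the Cxcl12 window held several GC boxes and the Col3a1 window held TATAAA. The Acta2 window held no exact match to the 5 motifs. It does hold ccctatatgg and ccttgtttgg, each of which differs from the searched CArG form by a single G or C in place of a W. The windows also differed in base composition, with 62.0% G and C in Col1a2, 64.4% in Cxcl12, 35.2% in Col3a1 and 53.6% in Acta2, against a median of 52.4% over all promoters of the table. The table held 26 promoters from 23 of the 35 members, and a member was counted if any of its promoters matched. The shares in brackets count single promoters, so they are not in the same unit as the member counts. A GC box was found in 11 of the 23 members (32.7% of all 32851 promoters hold it) and a CCAAT box in 8 (33.9%). TATAAA was found in 5 (12.4%), the AP-1 motif in 2 (6.75%) and a CArG box in 0 (1.47%). Matches describe the letters of these windows only.

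The arrays had medians between 139.7 and 151.3 intensity units, and replicates correlated with r from 0.991 to 0.998 over all probe sets. The dimmer of the Irf4 probe sets, the check of the group given IRF4, read 381, 202 and 261 in the high IL-7 arrays, 316, 270.4 and 257 in the low IL-7 arrays and 1088, 1379 and 2543 in the IRF4 arrays. It was highest in the 3 arrays given IRF4. The brighter Irf4 probe set read 5791, 4719 and 4964 in the high IL-7 arrays, 7926, 7902 and 7161 in the low IL-7 arrays and 3709, 3702 and 4256 in the IRF4 arrays, so it was lowest where IRF4 had been put back. Where either probe set lies relative to the deletion and to the reintroduced sequence is unknown from the sources used here, so neither checks the deletion itself. The B-lineage identity in the labels was carried by 12 tested B-lineage genes, whose summed intensity ran from 65195 to 74166 in the high IL-7 arrays, 95021 to 97466 in the low IL-7 arrays and 76047 to 78596 in the IRF4 arrays. Over 11 endothelial markers, 4 of them bright enough to be tested, the summed intensity was 911.8 to 930.004 in the high IL-7 arrays. It was 1156 to 1179.9 in the low IL-7 arrays and 1059 to 1228 in the IRF4 arrays, so every high IL-7 array was lowest. Relative to high IL-7, Pecam1 was higher by 1.23 on the log2 scale at low IL-7 (adjusted p = 1.65e-05) and by 1.14 with IRF4 (adjusted p = 0.000331), and Kdr was higher by 0.42 at low IL-7 (adjusted p = 0.00306). The sums of 12 macrophage markers, 8 of them tested (1543 to 1782 over the 9 arrays), overlapped between high and low IL-7. Those of 7 epithelial markers, 3 of them tested (988.7 to 1275), overlapped too. At low IL-7, however, Itgam was higher by 2.01 (adjusted p = 8.74e-06) and Epcam fell by 0.51 (adjusted p = 0.00608).

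The members' signal ranged more widely within each group than the group means differed. The mean log2 level of the 35 members, taken as log2(intensity + 16), was 8.28, 9.77 and 9.21 in replicates 1, 2 and 3 of high IL-7, 7.85, 8.68 and 8.48 in those of low IL-7 and 9.41, 7.79 and 8.02 in the IRF4 arrays. The group means were 9.08 ± 0.75 (SD, n = 3) for high IL-7, 8.34 ± 0.44 for low IL-7 and 8.41 ± 0.88 for the IRF4 group. The groups overlap, but for each replicate number the low IL-7 array lay below the high IL-7 array. High and low IL-7 arrays of the same number deviated together, but high IL-7 replicate 2 also did so with low IL-7 replicate 3 (r = 0.36 over probe sets). If the numbers pair these groups, the overlap does not measure the IL-7 difference within a number. That difference was not tested. High IL-7 replicates 2 and 3 and IRF4 replicate 1 stood above the other 6 arrays, and 27 of the 35 members had their highest value in 1 of those 3. The summed intensity of the members ranged from 13170 to 58252 over the 9 arrays. In these bulk cultures, fewer cells that make such transcripts and less RNA per cell cannot be told apart. The B-lineage genes moved otherwise, with all 3 low IL-7 arrays above all IRF4 arrays and those above all high IL-7 arrays, as the paired plots of both lists show.

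**Figure D1:**
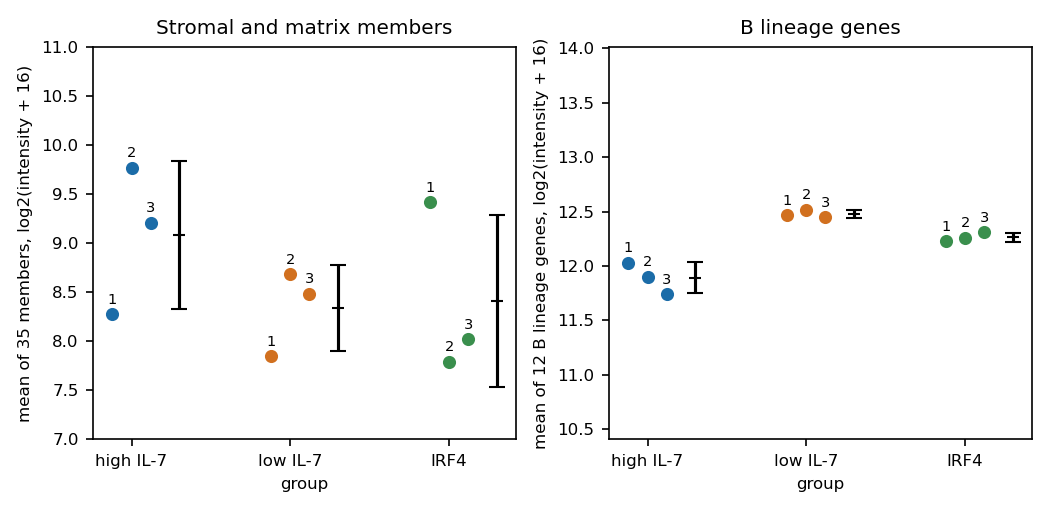
Mean log2(intensity + 16) of the 35 members (left) and of 12 B-lineage genes (right) in each of the 9 arrays; points are arrays with their replicate number and bars are the group mean ± SD (n = 3). The members' group means of 9.08, 8.34 and 8.41 have overlapping arrays, with high IL-7 replicates 2 and 3 and IRF4 replicate 1 on top.

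Within a group, the same arrays were high for most members. High IL-7 replicate 2 exceeded replicate 1 for 31 of 35 members, by a median of 3.20-fold and at most 10.6-fold (Col5a2). With IRF4, replicate 1 exceeded replicate 2 for 33 members, by a median of 4.06-fold and at most 15.4-fold (Col3a1). In low IL-7 the spread was smaller: replicate 2 exceeded replicate 1 for 33 members, by a median of 1.82-fold and at most 5.97-fold (Cxcl12). Across all arrays, 22 members varied 4-fold or more and 10 varied 10-fold or more between their lowest and highest array. The map of all members by array shows these columns as blocks of one colour.

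**Figure D2:**
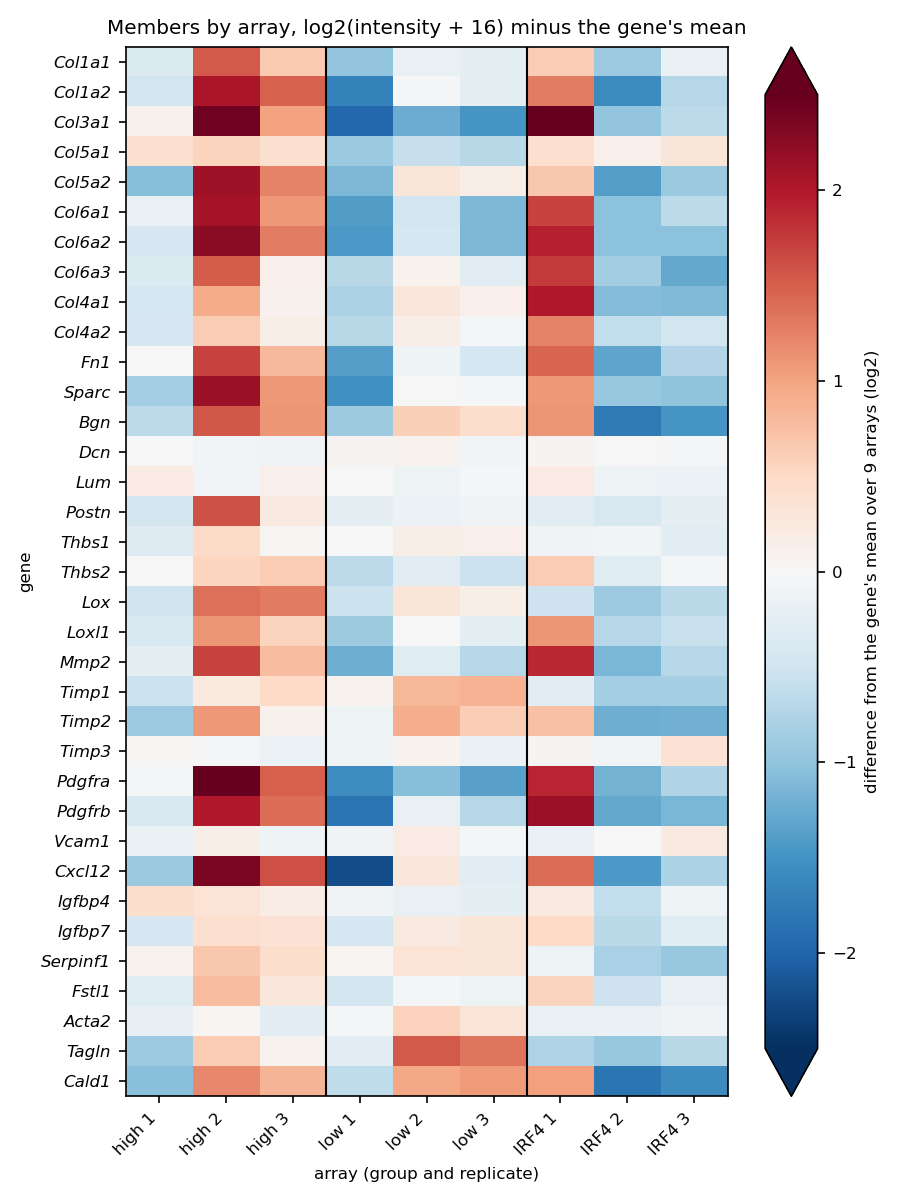
Each member's log2(intensity + 16) in the 9 arrays (columns, by group and replicate) minus the gene's mean over the 9 arrays; red is above and blue below that mean, and colours saturate at the ends of the bar. High IL-7 replicates 2 and 3 and IRF4 replicate 1 are red and low IL-7 replicate 1 and IRF4 replicates 2 and 3 blue for most collagens, Fn1, Sparc, Pdgfra, Pdgfrb and Cxcl12, while Dcn, Lum, Timp3 and Vcam1 are pale throughout.

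The fibrillar collagens form the load-bearing fibres of connective tissue. Intensities below are given in the order of replicates 1, 2 and 3. Type I collagen is built from the chains of Col1a1 and Col1a2. Col1a1 read 446, 1708 and 914 in the high IL-7 arrays, 285, 505 and 493 in the low IL-7 arrays and 911, 302 and 515 in the IRF4 arrays. Col1a2 read 1080.00, 6277 and 4211 in the high IL-7 arrays, 455, 1462 and 1270.2 in the low IL-7 arrays and 3672, 489 and 923 in the IRF4 arrays, a 13.8-fold range. Both chains were high in the same 3 arrays, and the groups overlap. Col3a1, the chain of type III collagen of young and pliable tissue, had the widest range of all members at 34.2-fold, with 309.7, 1622 and 598 in the high IL-7 arrays, 61.5, 112 and 94.2 in the low IL-7 arrays and 2106, 137 and 177 in the IRF4 arrays. Its 3 low IL-7 arrays lay below the 6 others. Col5a1 and Col5a2 encode chains of type V collagen, which starts and limits fibril growth. Col5a1 read 347, 390.3 and 348 in the high IL-7 arrays, 130.2, 169 and 155 in the low IL-7 arrays and 355, 289 and 327 in the IRF4 arrays, so its low IL-7 arrays stood apart while the other 6 hardly differed. Col5a2 instead read 94.9, 1001 and 535 in the high IL-7 arrays, 90.8, 270.5 and 247 in the low IL-7 arrays and 354, 74.2 and 107 in the IRF4 arrays and followed type I collagen.

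Type VI collagen makes beaded microfilaments around cells, and its 3 chains ran together. Col6a1 read 486, 2387 and 1194 in the high IL-7 arrays, 200.00, 391 and 246 in the low IL-7 arrays and 1812, 262 and 345 in the IRF4 arrays. Col6a2 read 519, 3372 and 1714 in the high IL-7 arrays, 247, 511 and 311 in the low IL-7 arrays and 2732, 333 and 334 in the IRF4 arrays. For both, the low IL-7 arrays lay below every high IL-7 array, while the IRF4 arrays spanned both. Col6a3 ranged 8.54-fold, from 268 to 2292, with its highest value in IRF4 replicate 1. Type IV collagen belongs to basement membranes rather than fibrils. Col4a1 read 148, 402 and 222 in the high IL-7 arrays, 112, 253 and 224 in the low IL-7 arrays and 867, 87.9 and 86.8 in the IRF4 arrays, a single high array in the IRF4 group. Col4a2 lay below the intensity filter of 108 (the 40th percentile of all probe sets) and was not tested, yet it tracked Col4a1 with r = 0.98 over the 9 arrays. The RefSeq starts of these neighbours lie 21 bases apart on opposite strands.

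Among the glycoproteins, fibronectin (Fn1), which links cells to collagen, read 1386, 4439 and 2419 in the high IL-7 arrays, 518, 1262 and 1000.4 in the low IL-7 arrays and 3801, 541 and 811 in the IRF4 arrays. Every low IL-7 array lay below every high IL-7 array, and the IRF4 group held both high and low values. Sparc, a collagen-binding protein of remodelling tissue, read 164, 1438 and 671 in the high IL-7 arrays, 97.2, 311 and 304 in the low IL-7 arrays and 674, 152 and 146 in the IRF4 arrays, but its least bright probe set above the filter read 309.9, 396 and 409 in the high IL-7 arrays, 428, 428 and 446 in the low IL-7 arrays and 355, 386 and 285 in the IRF4 arrays and did not follow. Thbs2, a thrombospondin of fibroblasts, read 153, 233 and 247 in the high IL-7 arrays, 92.1, 127 and 102 in the low IL-7 arrays and 249, 122 and 149.6 in the IRF4 arrays, again with low IL-7 beneath high IL-7. Thbs1, its platelet-rich relative, ranged 1.87-fold (96.0 to 179) by its brightest probe set, but the second, of nearly the same mean, ranged 5-fold (57.8 to 289), highest in high IL-7 replicate 2 and lowest in low IL-7 replicate 1. Postn (periostin) read 53.9, 270.3 and 95.9 in the high IL-7 arrays and lay below the filter in every array but high IL-7 replicate 2. Among the small leucine-rich proteoglycans, biglycan (Bgn) read 1058, 4930.3 and 3609 in the high IL-7 arrays, 895, 2553 and 2299 in the low IL-7 arrays and 3649, 480.5 and 598 in the IRF4 arrays and overlapped between groups. Decorin (Dcn, 77.4 to 89.9) and lumican (Lum, 27.9 to 40.2), both defining transcripts of fibroblasts in many tissues, stayed below the filter in all 9 arrays.

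Lox and Loxl1 encode lysyl oxidases, the enzymes that crosslink collagen and elastin. Lox read 334, 1282 and 1207 in the high IL-7 arrays, 324, 595 and 536 in the low IL-7 arrays and 332, 249 and 296 in the IRF4 arrays, and unlike the collagens it was low in IRF4 replicate 1, so that all IRF4 arrays lay below all high IL-7 arrays. Loxl1 ranged 4.68-fold (71.8 to 336) and of all members came closest to the mean of the others. Mmp2, a gelatinase, read 228, 904 and 477 in the high IL-7 arrays, 107, 215 and 158 in the low IL-7 arrays and 1041, 113 and 159 in the IRF4 arrays, with every low IL-7 array below every high IL-7 array. Its inhibitors did not share that order. Timp1 read 106, 191 and 234 in the high IL-7 arrays, 170.1, 296 and 305 in the low IL-7 arrays and 129, 81.6 and 82.5 in the IRF4 arrays, highest in 2 low IL-7 arrays and lowest in 2 IRF4 arrays. Timp2, which also helps to activate Mmp2, read 292, 1204 and 599.7 in the high IL-7 arrays, 509.6, 1065 and 870.02 in the low IL-7 arrays and 943, 232 and 233 in the IRF4 arrays, and Timp3, which binds to the matrix, ranged only 1.49-fold (142 to 212).

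Pdgfra and Pdgfrb encode the receptors for platelet-derived growth factors that mark fibroblasts and perivascular cells. Pdgfra read 223, 1403 and 669 in the high IL-7 arrays, 67.5, 101 and 79.1 in the low IL-7 arrays and 896, 92.3 and 129 in the IRF4 arrays. Pdgfrb read 117, 693 and 446 in the high IL-7 arrays, 33.8, 139 and 91.2 in the low IL-7 arrays and 761, 56.4 and 63.8 in the IRF4 arrays. The low IL-7 arrays of Pdgfra lay below all high IL-7 arrays, and those of Pdgfrb reached into them. Cxcl12, which retains B-cell precursors in the marrow, had the second widest range, 25.2-fold, with 711, 7051 and 4212 in the high IL-7 arrays, 279.7, 1669.6 and 1126 in the low IL-7 arrays and 3633, 495 and 778 in the IRF4 arrays. All 3 groups overlap. The brightest probe set of Vcam1 ranged only 1.33-fold (441 to 587), while another read 56.0, 539 and 229 in the high IL-7 arrays, 25.5, 41.7 and 46.7 in the low IL-7 arrays and 176, 40.6 and 65.7 in the IRF4 arrays and followed the collagens.

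The contractile genes, typical of smooth muscle and myofibroblasts, kept another order. Acta2, smooth muscle actin, read 2832, 3389 and 2691 in the high IL-7 arrays, 3173, 4873 and 4105 in the low IL-7 arrays and 2927, 2920.3 and 3099 in the IRF4 arrays. Tagln, its partner transgelin, read 178, 546 and 367 in the high IL-7 arrays, 279, 1028 and 898 in the low IL-7 arrays and 196, 171 and 207 in the IRF4 arrays. Low IL-7 replicates 2 and 3 were the highest arrays for both. Cald1 (caldesmon) read 291, 1439 and 1127 in the high IL-7 arrays, 392, 1229 and 1319 in the low IL-7 arrays and 1275, 163 and 198 in the IRF4 arrays and was as high in low IL-7 replicates 2 and 3 as in the high arrays of the other groups. Of the secreted regulators, Igfbp4, which binds insulin-like growth factors, read 5824, 5456 and 4912 in the high IL-7 arrays, 4033, 3779.9 and 3691 in the low IL-7 arrays and 5046, 2816 and 3993 in the IRF4 arrays, with high IL-7 above low IL-7 throughout. Serpinf1, which encodes the antiangiogenic factor PEDF, read 651, 994 and 837 in the high IL-7 arrays, 640.4, 786 and 758 in the low IL-7 arrays and 561, 344 and 313 in the IRF4 arrays, with all IRF4 arrays lowest. Igfbp7 ranged 2.36-fold (158 to 373) and Fstl1, a secreted follistatin-like protein, 2.49-fold (583 to 1450.1), both highest in the 3 arrays where the collagens were high.

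**Figure D3:**
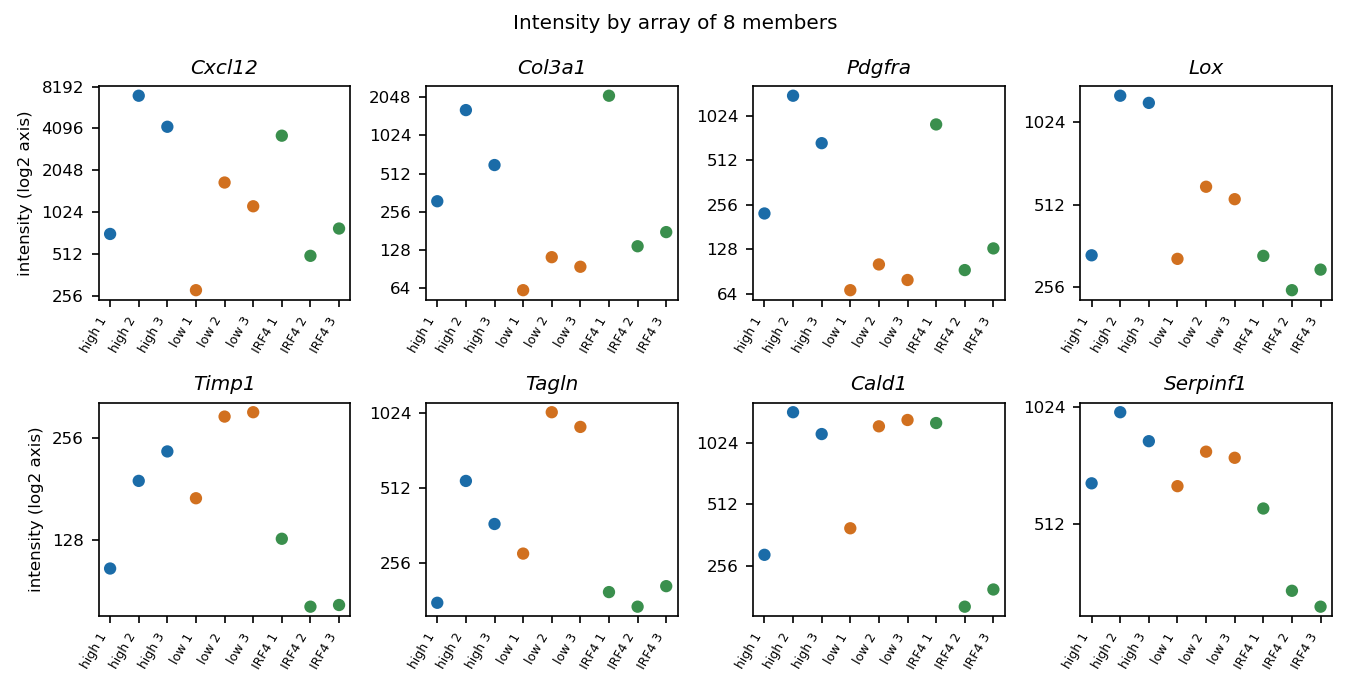
Intensity (log2 axis, a separate scale in each panel) of 8 members in the 9 arrays, coloured by group: high IL-7 blue, low IL-7 orange, IRF4 green. Cxcl12, Col3a1 and Pdgfra are high in IRF4 replicate 1 and Lox is not, Timp1 and Tagln peak in low IL-7 replicates 2 and 3, and all IRF4 arrays are lowest for Serpinf1.

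Lowering IL-7 was tested by setting the low against the high IL-7 arrays. Most of the members called were lower in low IL-7: Col3a1, Col5a1, Col6a1, Thbs2, Pdgfra and Igfbp4 fell, and Acta2 rose. These 7 are among 31 members that passed the intensity filter (Col4a2, Dcn, Lum and Postn did not), in limma's test with Benjamini-Hochberg adjustment over 12828 genes. Over all genes 37.4% were called, 19.6% lower and 17.8% higher, so the members' share of calls was not above that background. The median change of the 31 tested members was -0.76 on the log2 scale, against 0.02 over all genes, with 24 lower and 7 higher. For 9 members, all lower in low IL-7, no array of one group reached the range of the other, against 50.3% of all genes in either direction and 24.8% lower.

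Col5a1 had the smallest p of these. It fell by 1.18 (SE 0.11, adjusted p = 1.65e-05), and the call held under all 18 alternatives. Taken by themselves, its dimmer probe sets changed by -1.74 (adjusted p = 0.083) and -0.06 (adjusted p = 0.701), neither called. Col3a1 fell by 2.74 (SE 0.88, adjusted p = 0.0317) and Pdgfra by 2.66 (SE 0.77, adjusted p = 0.0195), both with a low IL-7 mean below the filter, so that their size depends on the 16 units added before the logarithm. Col6a1 changed by -1.99 (SE 0.69, adjusted p = 0.0444). With the replicate number as a block over all arrays, the IRF4 group included, Col3a1 (adjusted p = 0.0565) and Col6a1 (adjusted p = 0.0766) were no longer called. High and low IL-7 arrays of the same number deviated together, but IRF4 arrays did not deviate with them. These losses therefore do not show the effect of pairing the IL-7 groups. Thbs2 changed by -0.87 (SE 0.24, adjusted p = 0.0149), Igfbp4 by -0.49 (SE 0.17, adjusted p = 0.0413) and Acta2 by 0.43 (SE 0.14, adjusted p = 0.0333). In low IL-7 replicates 1 and 3 Thbs2 read below the filter, so its size also depends on the units added.

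The chains and partners of the called genes had intervals that were wide. The 95% interval of the change ran from -3.42 to 0.07 for Col1a2 (-1.68), -3.84 to -0.23 for Col6a2 (-2.04), -2.94 to -0.03 for Fn1 (-1.49), -3.88 to 0.06 for Pdgfrb (-1.91) and -3.86 to 0.36 for Cxcl12 (-1.75). None of these 5 was called. For each of these 5 the low IL-7 array read below the high IL-7 array of the same number, and a paired test of those groups alone was not made. By contrast the brightest probe sets of Vcam1 (-0.22 to 0.36) and Timp3 (-0.27 to 0.25) had intervals that exclude a change of 1 in either direction, whereas the third Vcam1 probe set changed by -2.01 (interval -3.41 to -0.61, adjusted p = 0.0293 over 27022 probe sets). Single arrays decided much of the count. The share of all genes called with an array left out is not given here or below. These counts therefore do not set the members apart from other genes. Without high IL-7 replicate 1, 13 members were called, among them Col1a1, Col1a2, Col5a2, Col6a2, Cxcl12, Lox, Pdgfrb and Sparc, which the full set did not call. Without IRF4 replicate 1, which enters only through the shared estimate of the spread, 11 were called. With high replicate 2 or low replicate 1 or 2 left out, 3 members were called, and 1 with replicate 3 of either group left out. Without each of those 5 arrays in turn the Col3a1 call was lost, with adjusted p between 0.0634 and 0.105. Col6a1 lost its call without the same arrays or IRF4 replicate 3 (adjusted p up to 0.145). Pdgfra lost it when replicate 2 or 3 of high IL-7 or replicate 1 or 3 of low IL-7 was left out (up to 0.0669). For Thbs2 the same happened when high replicate 3 or low replicate 1 or 3 was left out (up to 0.0592), and for Igfbp4 with any single array of either group or IRF4 replicate 3 left out (up to 0.114). Acta2 was not called when high replicate 1 or 3 or low replicate 2 or 3 was left out (up to 0.125).

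**Figure D4:**
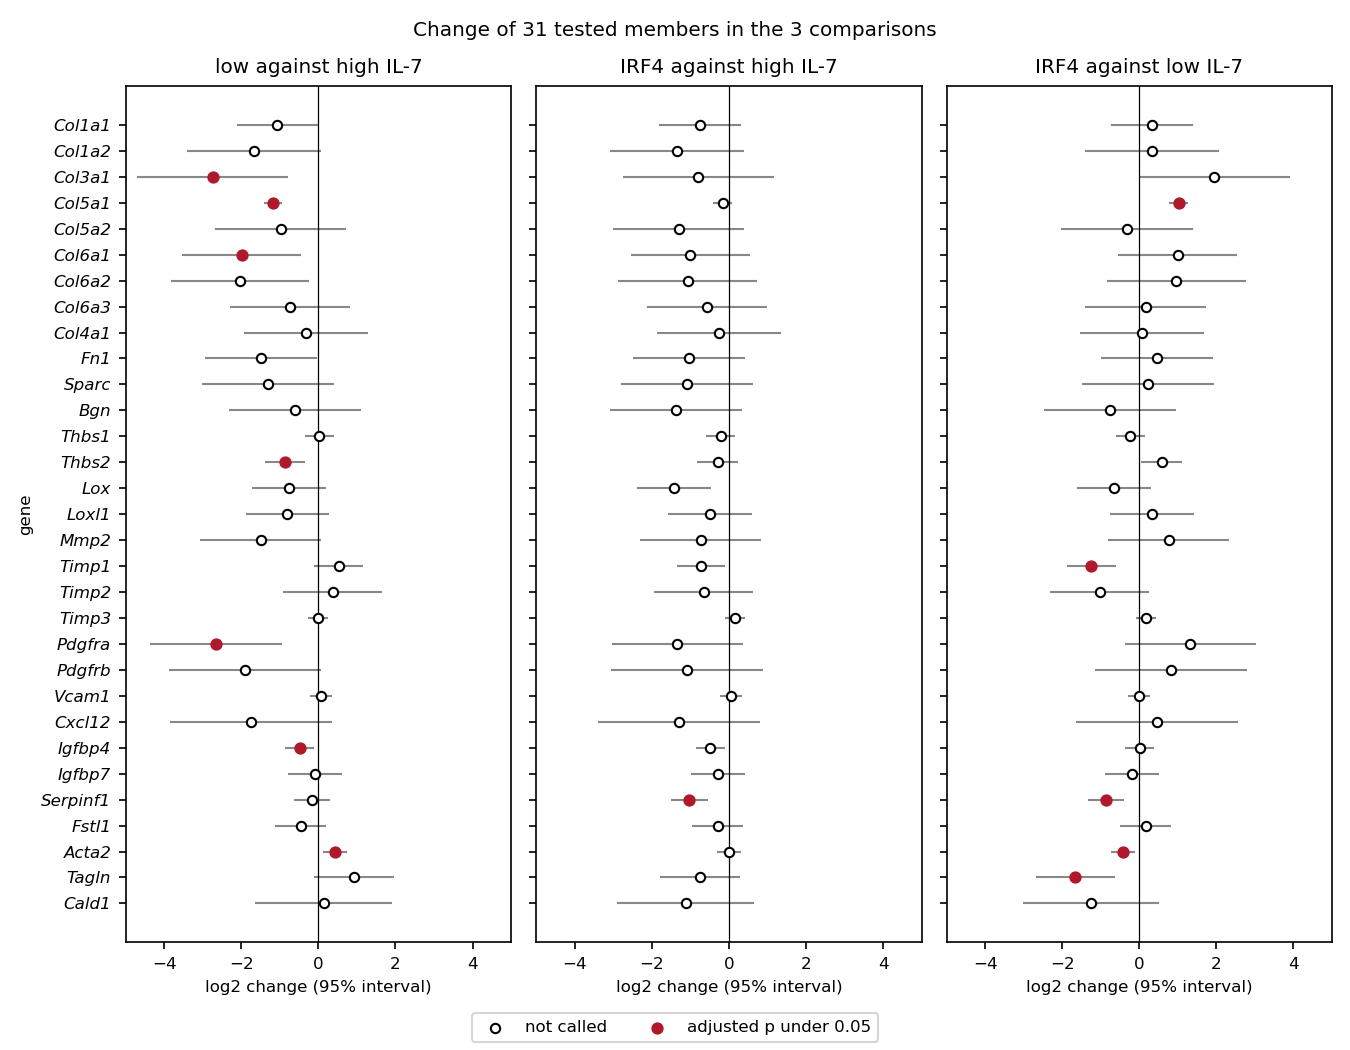
Log2 change of the 31 tested members with its 95% interval in the 3 comparisons, from limma's fit over 9 arrays; filled red points have an adjusted p under 0.05. The intervals are wide for the collagens, Pdgfra, Pdgfrb and Cxcl12 and narrow for Col5a1, Timp3, Vcam1 and Acta2, and 7, 1 and 5 points are filled.

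Putting IRF4 back was tested against the same high IL-7 arrays, so this comparison shares its controls with the one above. Only Serpinf1 was called among the 31 tested members. It fell by 1.02 (SE 0.21, adjusted p = 0.0292), and no member rose. Over all genes 2.85% were called, 0.951% lower and 1.89% higher, in limma's test. By that test 4 members had an unadjusted p under 0.05, as did 1933 of all 12828 genes. The members' median change was -0.74 against -0.01 over all genes, with 28 lower and 3 higher. The arrays of Serpinf1 and Lox did not overlap between the groups, both lower with IRF4, against 21% of all genes in either direction and 11% lower. Lox changed by -1.42 (SE 0.43, adjusted p = 0.131) and was not called. The Serpinf1 call went when replicate 2 or 3 of any group was left out (adjusted p up to 0.119), with the replicate block (adjusted p = 0.0607), with the mean of its probe sets (adjusted p = 0.103) and with only the 2 groups compared (adjusted p = 0.103). Its second probe set changed by -0.30 (adjusted p = 0.458). Without IRF4 replicate 1, the array where the collagens were high, 4 members were called: Fn1, Igfbp4, Pdgfra and Serpinf1, with Fn1 at -1.87 and Pdgfra at -2.29. Without high IL-7 replicate 1, Lox was called too (adjusted p = 0.00112), and 0 members were called when replicate 2 or 3 of any group was left out.

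The IRF4 and low IL-7 arrays were also compared directly. Col5a1 was higher with IRF4, and the contractile genes Acta2 and Tagln, the protease inhibitor Timp1 and Serpinf1 were lower. These 5 calls among 31 tested members stand against 36.4% of all genes, 18.6% higher and 17.7% lower. The members' median change was 0.16 against 0.00, with 19 higher and 12 lower. Arrays did not overlap for 2 members higher and 5 lower with IRF4, against 48.1% of all genes in either direction, 24.6% higher and 23.6% lower. Col5a1 rose by 1.02 (SE 0.11, adjusted p = 5.48e-05), but with the mean of its probe sets the change was 0.55 (adjusted p = 0.177). Timp1 fell by 1.25 (SE 0.29, adjusted p = 0.00611) and Serpinf1 by 0.86 (SE 0.21, adjusted p = 0.00905). Both calls held without any single array, although the second Serpinf1 probe set changed by only -0.23 (adjusted p = 0.324). Tagln fell by 1.66 (SE 0.46, adjusted p = 0.0173), a call that low replicate 2 or 3 or IRF4 replicate 2, left out, took away (adjusted p up to 0.0735). Acta2 fell by 0.42 (SE 0.14, adjusted p = 0.0389), not called when low replicate 2 or 3 or any single IRF4 array was left out (up to 0.138). Without low IL-7 replicate 2 or 3 the count of called members was 3.

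Probe sets of a gene did not always run together. Several probe sets passed the filter for 20 members. Of these, Cald1, Col5a1, Sparc, Timp3 and Vcam1 had a dimmer probe set with r under 0.5 with the brightest over the 9 arrays, and 20 of the 34 dimmer probe sets had r above 0.9. The probe sets of Col5a1, Vcam1 and Serpinf1 are plotted. The second probe set of Col5a1 read 113, 812 and 347 in the high IL-7 arrays, 50.6, 117 and 101 in the low IL-7 arrays and 444, 67.1 and 76.2 in the IRF4 arrays, the pattern of the other collagens, and the third kept to a range of 135 to 177. The brightest probe set of Vcam1 changed by 0.07 from high to low IL-7, unlike the third, whose change was given above. Serpinf1's second probe set read 325, 517 and 415 in the high IL-7 arrays, 349, 428 and 406 in the low IL-7 arrays and 409, 298 and 301 in the IRF4 arrays, with IRF4 replicate 1 no lower than some arrays of the other groups. The dimmest probe sets of Cald1 ranged 1.21-fold and 1.39-fold, against 8.83-fold for the brightest. The second probe set of Pdgfrb ranged 1.75-fold against 22.5-fold and changed by -0.31 against -1.91 from high to low IL-7. The third of Sparc changed by 0.23 against -1.31, and none of the Pdgfrb and Sparc probe sets was called. For Igfbp4, 4 of 5 dimmer probe sets were also called lower in low IL-7, and the remaining one changed by -0.15 (adjusted p = 0.439).

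**Figure D5:**
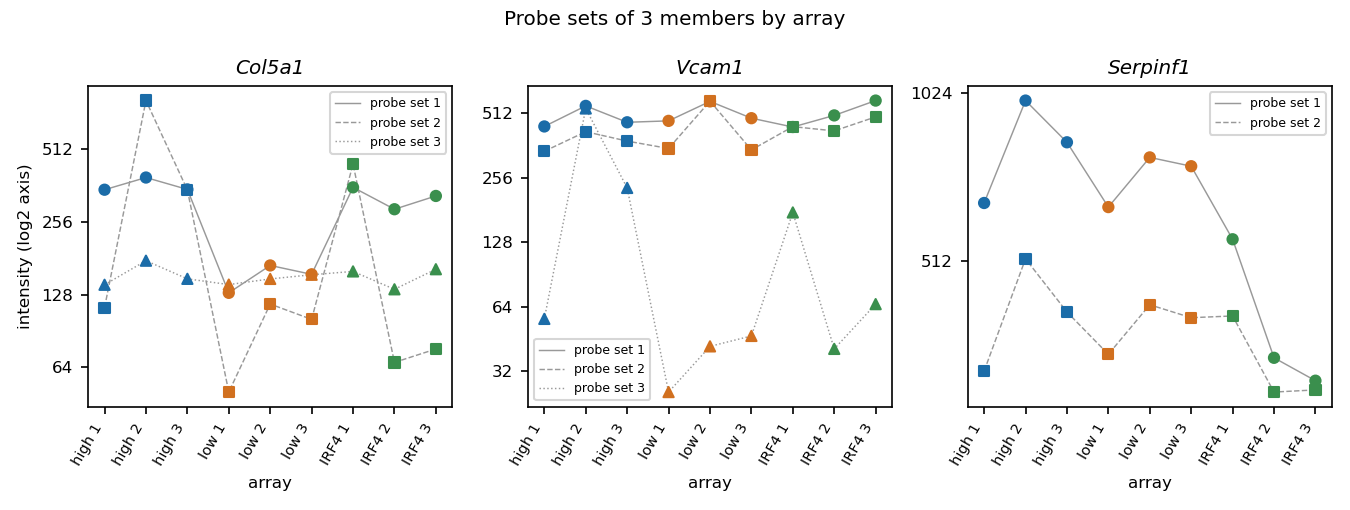
Intensity (log2 axis) of each probe set above the filter or named in the text for Col5a1, Vcam1 and Serpinf1 in the 9 arrays; probe set 1 is the brightest, colours mark the groups (high IL-7 blue, low IL-7 orange, IRF4 green) and lines join 1 probe set. The second probe set of Col5a1 ranges 16.1-fold and the third of Vcam1 21.1-fold over the arrays, against 3-fold and 1.33-fold for the brightest.

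How far the members ran together was described by Pearson's r of each member's log2 level with the mean of the other members over the 9 arrays (n = 9), which share cultures, groups and array scaling. It exceeded 0.9 for 14 of the 35 and 0.5 for 27. Loxl1 (0.98), Col1a2 (0.98), Fstl1 (0.98), Sparc (0.98) and Cxcl12 (0.97) were closest. The 8 members at or below 0.5 were Col5a1 (0.46), Timp1 (0.40), Lum (0.34), Tagln (0.30), Acta2 (0.02), Vcam1 (-0.04), Timp3 (-0.16) and Dcn (-0.26). With each group's mean removed first, Timp2 (0.99), Serpinf1 (0.97), Cald1 (0.98), Timp1 (0.83) and Col5a1 (0.80) followed the other members within groups as well, whereas Vcam1 (0.08), Timp3 (-0.08) and Dcn (0.03) did not. Over all 12828 genes tested the median r with the members' mean was 0.02, 1056 exceeded 0.5 and 89 exceeded 0.9.

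Outside all lists, the 12 genes most like the members' mean had r from 0.965 to 0.988. Cpe, carboxypeptidase E of the secretory pathway, was closest, with 144, 683 and 463 in the high IL-7 arrays, 105, 232 and 209 in the low IL-7 arrays and 518, 74.8 and 85.3 in the IRF4 arrays. Pxdn (0.983), which encodes peroxidasin, the enzyme that crosslinks type IV collagen, read 87.3, 271 and 163 in the high IL-7 arrays, 86.2, 128 and 108 in the low IL-7 arrays and 211, 70.4 and 76.1 in the IRF4 arrays. Plpp3 (0.978), a lipid phosphatase of the cell surface, read 228, 1144 and 1064 in the high IL-7 arrays, 190.1, 422 and 343 in the low IL-7 arrays and 918, 144 and 223 in the IRF4 arrays. Enah, an actin regulator, ranged from 60.9 to 549, Ctsl, the lysosomal protease cathepsin L, from 172 to 683, and Tgfbr3, the co-receptor betaglycan for TGF-β, from 131 to 618. The others were Cd302, Xdh, Arhgap29, Kdelr3, Marveld1 and Slc5a3.

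Collagen-processing genes divided by how they varied. Of 12 tested, 5 (41.7%) fell and 0 rose in low against high IL-7, where 19.6% of all genes were called lower and 17.8% higher. With IRF4 against high IL-7, 0 were called (2.85% of all genes), and 4 had an unadjusted p under 0.05, as did 1933 of all 12828 genes. With IRF4 against low IL-7 (36.4% called) 2 rose and 1 fell. Of the 12, 7 had r above 0.5 with the members' mean. Serpinh1, the collagen chaperone, Pcolce, which enhances procollagen trimming, and P4ha2, a prolyl hydroxylase, had r above 0.9 with it. Crtap, a subunit of the prolyl 3-hydroxylase complex, instead fell evenly, with 908, 713 and 704 in the high IL-7 arrays, 405, 336 and 339.6 in the low IL-7 arrays and 670.3, 450.3 and 585 in the IRF4 arrays (change -1.07, SE 0.15, adjusted p = 0.000325). P4ha1 fell by 1.11 (adjusted p = 0.00374). Among 23 other matrix proteins, 1 rose and 4 (17.4%) fell in low IL-7, not above the 19.6% of all genes called lower. With IRF4, 1 rose against high IL-7 (1.89% of all genes), and 1 rose and 1 fell against low IL-7, together 8.7% against 36.4% of all genes. The gene that rose in low IL-7 was Col5a3, a further type V chain, with 150.4, 182 and 137 in the high IL-7 arrays, 787, 1161 and 1081 in the low IL-7 arrays and 371, 488 and 346 in the IRF4 arrays, opposite in direction to Col5a1 (change 2.56, SE 0.17, adjusted p = 2.17e-06 in low IL-7, and 1.27 with IRF4 against high IL-7). Tgfbi, a matrix protein induced by TGF-β, fell by 2.22 (adjusted p = 0.0364) and Vcan, versican, by 1.06 (adjusted p = 0.013).

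Proteases and receptors divided in how far they ran with the members. Of 8 tested proteases and inhibitors 3 had r above 0.5 with the members' mean, and of 17 matrix and niche receptors 7, against 1056 of all 12828 genes. The highest were Ctsk, the protease cathepsin K (0.90), and Sdc2, the proteoglycan syndecan 2 (0.96), both named after their values were seen. Of the proteases and inhibitors, 4 rose (against 17.8% of all genes) and 0 fell in low IL-7, 1 fell with IRF4 against high IL-7 (0.951% of all genes) and 3 fell against low IL-7 (17.7% of all genes). Mmp14, the membrane-bound protease that activates Mmp2, read 2711, 3192 and 2745 in the high IL-7 arrays, 3554, 4827 and 4333 in the low IL-7 arrays and 1990.2, 1568 and 1311 in the IRF4 arrays, and it rose by 0.55 (adjusted p = 0.017) as IL-7 was lowered and fell by 0.84 (adjusted p = 0.0154) with IRF4. Of the receptors, 6 rose and 1 fell in low IL-7, together 41.2%, near the 37.4% of all genes. With IRF4, 1 rose against high IL-7 (1.89% of all genes) and 4 (23.5%) fell against low IL-7 (17.7% of all genes). Itga4, a chain of the integrin that binds VCAM1 and fibronectin, read 2001, 2212 and 1978 in the high IL-7 arrays, 6489.6, 6288 and 6048 in the low IL-7 arrays and 1768, 1958 and 1797 in the IRF4 arrays (change 1.60, SE 0.07, adjusted p = 3.88e-07), and its low IL-7 arrays stood far above the rest. Itgav, a vitronectin and fibronectin receptor chain, changed by 1.52 (adjusted p = 0.000128). Cxcr4, the receptor for CXCL12, read 1445, 876 and 1011 in the high IL-7 arrays, 2706, 2278 and 2409 in the low IL-7 arrays and 2214, 2157 and 3108 in the IRF4 arrays, higher by 1.17 with less IL-7 (adjusted p = 0.000628) and by 1.17 with IRF4 (adjusted p = 0.0068), against the same controls. Of 14 other contractile genes, 4 rose and 1 fell in low IL-7, together 35.7%, near the 37.4% of all genes. With IRF4 against high IL-7, 0 were called (2.85% of all genes), and 1 had an unadjusted p under 0.05, as did 1933 of all 12828 genes. With IRF4 against low IL-7, 5 (35.7%) fell, where 17.7% of all genes did. Actn1, an actin crosslinker, read 1271, 1284 and 1373 in the high IL-7 arrays, 2316, 2101 and 2100.4 in the low IL-7 arrays and 1039, 695 and 475 in the IRF4 arrays and fell by 1.61 (adjusted p = 0.000218) with IRF4 against low IL-7, as Acta2 and Tagln did.

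Of 15 bone marrow niche signals, 0 rose and 1 fell in low IL-7, together 6.67% against 37.4% of all genes. With IRF4 against high IL-7, 0 were called (2.85% of all genes), and 2 had an unadjusted p under 0.05, as did 1933 of all 12828 genes. With IRF4 against low IL-7, 1 rose and 1 fell, together 13.3% against 36.4%. Alpl, tissue-nonspecific alkaline phosphatase, read 1392, 882 and 826 in the high IL-7 arrays, 524, 462 and 527 in the low IL-7 arrays and 1077, 966 and 1469.96 in the IRF4 arrays and fell by 0.98 with less IL-7 (adjusted p = 0.00313). Of 17 fibroblast identity genes, 4 (23.5%) fell and 0 rose in low IL-7, near the 19.6% of all genes called lower. With IRF4 against high IL-7, 0 were called, and 2 had an unadjusted p under 0.05, as did 1933 of all 12828 genes. With IRF4 against low IL-7, 1 rose and 2 fell, together 17.6% against 36.4% of all genes. Snai2, a mesenchymal transcription factor, read 109, 905 and 476 in the high IL-7 arrays, 52.4, 82.9 and 95.9 in the low IL-7 arrays and 261, 78.3 and 101 in the IRF4 arrays and fell by 2.07 (adjusted p = 0.024), and with Prrx1 and Wwtr1 it had r above 0.9 with the members' mean. Tead1 fell by 0.91 (adjusted p = 0.000289) with little spread between replicates.

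Some markers of adipocytes moved with the members in the same arrays. Of 9 tested, 5 had r above 0.5 with the members' mean (1056 of all 12828 genes did), while Cd36 had r = -0.25. The summed intensity of 10 adipocyte genes, 9 of them tested, was between 1713 and 5018 in the high IL-7 arrays. It was between 1069 and 1461 in the low IL-7 arrays and between 2023 and 10395 in the IRF4 arrays. Lpl, lipoprotein lipase, read 307, 2424 and 706 in the high IL-7 arrays, 85.0, 172 and 140.5 in the low IL-7 arrays and 4184, 219.7 and 241 in the IRF4 arrays. Fabp4, a fatty-acid-binding protein, read 542, 1432 and 1054 in the high IL-7 arrays, 151, 280.2 and 229 in the low IL-7 arrays and 3579.6, 219 and 136 in the IRF4 arrays. Neither was called in any of the 3 comparisons. Of the 9 tested genes 1, Cd36, was called, at 439.8, 756 and 675 with IRF4 against 17.3 to 22.7 in the other 6 arrays. That is 11.1% of the tested genes in each IRF4 comparison, where 2.85% (against high IL-7) and 36.4% (against low IL-7) of all genes were called. Cd36 passed the intensity filter only through the IRF4 arrays, where it was high. Its call and this share are therefore not independent of the filter. Pparg had r above 0.9 with the members' mean, while Adipoq, Cidec and Retn, which define mature fat cells, did not exceed 0.5. The part of these cells' transcripts in the members' values was not tested. Of 12 B-lineage genes, 8 rose and 0 fell in low IL-7 (17.8% and 19.6% of all genes). With IRF4, 4 rose against high IL-7 (1.89% of all genes), and 2 rose and 8 fell against low IL-7 (18.6% and 17.7% of all genes). Their r with the members' mean lay between -0.58 and 0.01. Blnk, a signalling adaptor of pre-B cells, read 4062, 3792 and 3782 in the high IL-7 arrays, 10684, 10339 and 10169 in the low IL-7 arrays and 4596, 4550.2 and 4081 in the IRF4 arrays. The part of these higher B-lineage values in the members' lower ones was likewise not tested.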

How the data were processed

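Biotin-labelled total RNA, isolated with Trizol and columns, was hybridised following Affymetrix's standard procedure, per the labels' protocols. The authors deposited linear intensities, 1 per probe set and array (45101 probe sets, values 0 to 24762), and the sources used here do not say how these were summarised and scaled. No detection calls were in the table, so whether a dim probe set stood above background is unknown. Labels agree on 5 and 0.25 ng of IL-7 but not on the unit of volume. Genes were named from the platform annotation (34945 probe sets with 1 symbol, 932 with several, 9160 with none, and 64 controls), and 34741 symbols were matched by Entrez identifier to RefSeq's GRCm38.p6 table, which changed 0.

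Values were taken as log2(intensity + 16) with no added normalization. Probe sets at or above the 40th percentile of mean intensity (108.0) were kept and the brightest stood for its gene. limma 3.58.1 in R 4.3.3 fitted group means over 9 arrays, with a variance trend and Benjamini-Hochberg adjustment over 12828 genes, and genes were called at an adjusted p under 0.05. Every adjusted p in the text comes from this limma test, and single probe sets were adjusted over 27022 probe sets. Fold changes are on the log2(intensity + 16) scale, which understates changes of dim genes, and 3 arrays a group limit the precision. The code was tested on simulated data. Figures used matplotlib 3.10.9 in Python 3.11.15.

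All members were named, with up to 4 genes of smallest p from each of 12 other lists and the 12 genes most like the members' mean. Further list genes, such as Serpinh1, Pcolce, P4ha2, Ctsk, Sdc2, Prrx1, Wwtr1, Pparg, Adipoq, Cidec and Retn, were named for their r with the members' mean after the values were seen. Promoters were shown for 4 members picked after their values were seen. The members and lists were chosen with earlier results of these data known. Same-numbered high and low IL-7 arrays deviated together from their group means (r = 0.53, 0.35 and 0.19 over probe sets). High IL-7 replicate 2 deviated as closely with low IL-7 replicate 3 (r = 0.36). The other pairs of different numbers in these groups had r from -0.51 to 0.10. The numbers were taken to pair those groups, which is an assumption. Same-numbered IRF4 arrays did not deviate with them (r from -0.35 to 0.01). No batch was named in the labels. The replicate block covered all 9 arrays, and a block over the high and low IL-7 groups alone was not run. Alternatives were the pseudocount, the filter, quantile normalization, the mean of a gene's probe sets, no trend, the replicate block, only the groups compared and each array left out, plus the dimmer probe sets by themselves, added after seeing the data.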

Additional observations from a re-analysis of the deposited data

How the results depend on the processing

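Over 18 alternatives the direction of every called member was kept, and no value of a called member reversed. The calls of Col5a1 (low against high IL-7) and of Serpinf1 and Timp1 (IRF4 against low IL-7) held under each of them that gave a value. With the brightest probe set replaced by the mean of all probe sets, with the replicate block and with only the 2 groups compared, 0 members were called for IRF4 against high IL-7 in place of 1, by limma. At the main setting of that comparison 4 members had an unadjusted p under 0.05, as did 1933 of all 12828 genes. Leaving out each array in turn gave 1 to 13 called members for low against high IL-7, 0 to 4 for IRF4 against high IL-7 and 3 to 6 for IRF4 against low IL-7. The share of all genes called at these settings is not given, so the ranges do not describe the members alone. With the replicate block 5, 0 and 5 members were called in the 3 comparisons. Its effect on Col3a1 and Col6a1 stands beside those genes, Serpinf1 in IRF4 against high IL-7 was also lost (adjusted p = 0.0607), and no other member's call changed under the block. The members' mean log2 level was 8.28 in high and 7.67 in low IL-7 when a gene's probe sets were averaged, against 9.08 and 8.34, since dimmer probe sets then count as much. The Igfbp4 call was lost with quantile normalization (adjusted p = 0.0565) and without a trend (0.0515), that of Acta2 in low against high IL-7 with only the 2 groups compared (0.0523) and that of Col6a1 with the mean of its probe sets (0.0501). The cause of these losses was not tested. Taken by itself, the second Thbs2 probe set was not called (0.0642). Without the filter all 35 members were tested and the counts stayed at 7, 1 and 5. For Col3a1, with 1 or 64 units added in place of 16 the change was -2.94 or -2.30, and for Pdgfra -2.85 or -2.21.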
